A study of Rattus norvegicus with 6 samples.

Results

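In order to describe how fatty acid handling genes behave in LPS-stimulated microglia exposed to siponimod, the transcripts of 10 genes linked to the peroxisome proliferator-activated receptors (PPARs) were followed: Angptl4, Plin2, Cpt1a, Pdk4, Fabp4, Fabp5, Lpl, Hilpda, Pparg and Ppard. They were taken by gene name from the 23139 genes listed in the 6 count tables. Of the 10 genes, 8 were listed, while levels of Fabp5 and Hilpda were not analysed here. The set was chosen by the measured difference between the conditions in these same libraries, that of Angptl4 above all, so that values of these genes are a description and carry no test. Primary microglia were shaken off mixed cortical cultures of postnatal day 1 Wistar rats and purified with CD11b/c beads. The cells received lipopolysaccharide (LPS, a bacterial cell wall component) at 100 ng/mL, either with the solvent DMSO (LPS + DMSO, n = 3) or with siponimod at 50 µM, a modulator of sphingosine phosphate receptors (LPS + siponimod, n = 3). LPS was thus shared by both groups, and neither unstimulated cells nor cells with siponimod alone were part of the 6 libraries. The time of harvest for sequencing and the number of animals behind a replicate are not given in the sources used here. LPS + DMSO replicates 1, 2 and 3 held 39484979, 38301365 and 38080379 counts, and LPS + siponimod replicates 1, 2 and 3 held 46643859, 43336006 and 38857441. Replicate 3 of both groups stood apart by some transcripts of other neural cells, though not by all. Of oligodendrocyte progenitor genes, Olig2 had 1, 2 and 240 counts with LPS + DMSO and 1, 3 and 40 with LPS + siponimod, and Pdgfra 5, 4 and 284 against 1, 4 and 81. The neuronal gene Map2 had 0, 3 and 162 counts against 1, 1 and 115, and the astrocyte gene Sox9 had 0, 5 and 99 against 3, 1 and 59. Another astrocyte gene, Gfap, had 1, 2 and 88 counts against 0, 0 and 1, and was thus raised with LPS + DMSO only. Cnp of the oligodendrocyte lineage had 5357, 5030 and 4195 counts against 1756, 2566 and 1533, the fewest in replicate 3. With LPS + DMSO, Slc1a3, Mbp and Syp, genes of astrocytes, oligodendrocytes and neurons, were also lowest in replicate 3. Levels are counts scaled to library size (CPM). A log2 fold change (FC) above 0 means more transcript with siponimod, and it is given ± its standard error (SE).

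PPARs are nuclear receptors that bind fatty acids and their derivatives and act on DNA together with retinoid X receptors (RXRs). In macrophages and microglia, their target genes cover the release of fatty acids from lipoproteins, their binding inside the cell, their storage in lipid droplets and their oxidation in mitochondria. Angptl4 encodes a secreted protein that inactivates lipoprotein lipase, the product of Lpl, and it responds to fatty acids, hypoxia and glucocorticoids in many tissues.

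With siponimod, Angptl4 was nearly lost from the LPS-stimulated cells and Lpl was lower, whereas Fabp4 was higher. In all, 1 of the 8 genes (Fabp4) passed the thresholds for differentially expressed genes (DEGs) upwards and 2 (Angptl4 and Lpl) downwards, which asked for 1.5-fold or more at an adjusted p no higher than 0.05 in edgeR's quasi-likelihood fit over all genes. Of the 11977 genes tested, 25.3% were DEGs, with 13.6% higher and 11.7% lower, and all 8 genes passed the filter on low counts. Values of the groups did not overlap for 3 of the 8 genes, as was the case for 49.3% of all genes tested. Since the genes were chosen with this contrast in view, nothing is read from these numbers. In such bulk samples, fewer cells of a kind and less RNA per cell cannot be told apart.

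**Figure D1:**
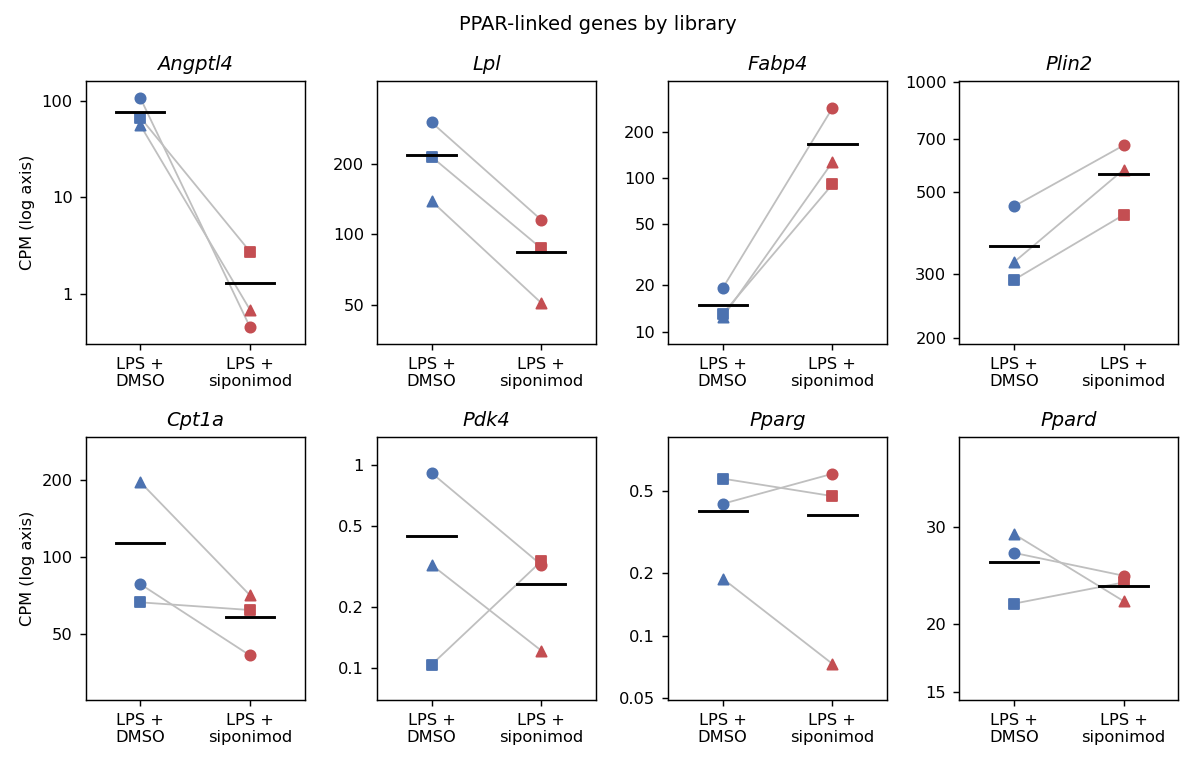
Levels of the 8 listed PPAR-linked genes in each library, in CPM on log axes that differ between panels. Circles, squares and triangles are replicates 1, 2 and 3, blue is LPS + DMSO, red is LPS + siponimod, grey lines join libraries with the same number and black bars are means of n = 3. The groups are apart for Angptl4, Lpl and Fabp4 and overlap for the other 5 genes.

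Angptl4 had 3935, 2571 and 2066 counts in LPS + DMSO replicates 1, 2 and 3, and 21, 122 and 28 counts in LPS + siponimod replicates 1, 2 and 3. Every library with siponimod was far below every library without it, and among the former replicate 2 kept the most. Scaled to library size, the level went from 76.2 ± 26.6 to 1.29 ± 1.26 CPM (SD, n = 3 per group), with a log2 FC of -5.88 ± 0.77 SE or 58.9-fold lower. This was the most negative fold change among the 1403 lower DEGs. The differences within same-numbered libraries were -7.73, -4.59 and -6.25 on the log2 scale. With any single library removed Angptl4 stayed past the thresholds, at log2 FCs between -7.08 (without LPS + siponimod replicate 2) and -5.47.

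Lpl, the lipase that ANGPTL4 inhibits, had 11135, 8255 and 5154 counts with LPS + DMSO and 5359, 3891 and 2091 counts with LPS + siponimod. In CPM, the groups were apart, the lowest LPS + DMSO library (139 CPM) lying above the highest LPS + siponimod library (115 CPM). The mean was 218 ± 80.9 CPM against 84.5 ± 32.3 CPM, a log2 FC of -1.37 ± 0.39 SE or 2.58-fold lower. Both groups spread widely, but the pairs of same-numbered libraries differed by much the same amount, -1.38, -1.30 and -1.44 on the log2 scale. Lpl remained a DEG in only 1 of the 6 fits without a library, that without LPS + DMSO replicate 3, and its log2 FC ranged from -1.66 (without LPS + siponimod replicate 1) to -1.05 (without LPS + DMSO replicate 1). It was also no DEG when genes with low counts were retained. With the replicate number as a block, it was one (log2 FC -1.37 ± 0.12 SE).

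Angptl4 was also set against the transcript of its target. For every 100 Lpl counts, 35.3, 31.1 and 40.1 Angptl4 counts were found in LPS + DMSO replicates 1, 2 and 3 against 0.392, 3.14 and 1.34 in LPS + siponimod replicates 1, 2 and 3. This ratio does not depend on how libraries are scaled, and its values in the groups did not overlap. Since Angptl4 fell far more than Lpl, this follows from the values above and is no further support.

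The region around the Angptl4 start site is shown because this gene changed most, and that of Plin2 because it is a lipid droplet gene of the set whose fitted change pointed the other way. Windows from 250 bases before to 50 bases after a start site were taken from RefSeq (build GRCr8, whereas reads had been mapped to mRatBN7.2), where 6 of the 10 genes had 8 windows. Capitals mark the letters ACGTG on either strand, the core of the element bound by hypoxia-inducible factors (HIFs), which is also contained in the E-box CACGTG. The Angptl4 window is chr7:15258632-15258931 on the minus strand and that of Plin2 is chr5:106228969-106229268 on the minus strand, the one of its 2 windows that holds these letters, both written 5′ to 3′ along the gene.
Angptl4: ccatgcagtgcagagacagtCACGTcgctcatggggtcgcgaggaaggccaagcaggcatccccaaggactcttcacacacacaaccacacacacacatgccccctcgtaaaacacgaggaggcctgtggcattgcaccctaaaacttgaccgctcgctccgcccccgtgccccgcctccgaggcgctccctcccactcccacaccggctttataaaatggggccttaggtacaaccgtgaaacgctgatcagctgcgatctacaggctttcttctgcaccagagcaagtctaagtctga
Plin2: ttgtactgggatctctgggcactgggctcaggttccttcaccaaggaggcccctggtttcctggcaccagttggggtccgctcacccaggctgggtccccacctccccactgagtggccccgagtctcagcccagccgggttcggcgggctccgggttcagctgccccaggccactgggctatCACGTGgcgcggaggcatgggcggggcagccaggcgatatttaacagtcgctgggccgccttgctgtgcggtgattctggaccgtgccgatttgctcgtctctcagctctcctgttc
In Angptl4 the letters begin 230 bases before the start site and read on the opposite strand, while in Plin2 both strands match in 1 palindrome that begins 67 bases before it. Across 33469 RefSeq windows of the same length, 19.3% held ACGTG, and 3 of the 8 windows here did, the third being that of Hilpda, while the other window of Plin2 did not. The element to which PPAR and RXR bind, AGGTCA followed after 1 base of any kind by a second AGGTCA, was found in 0.0538% of all windows on either strand. A relaxed form with any base at the fourth position of each copy was found in 0.415%, and AGGTCA by itself, which the strict element contains, in 16.2%. None of these 3 patterns was in the 8 windows. This says only that the letters are not within these 300 bases.

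Fabp4 encodes a fatty acid binding protein of adipocytes and macrophages. Its counts were 712, 503 and 462 in LPS + DMSO replicates 1, 2 and 3 and 13220, 4055 and 5196 in LPS + siponimod replicates 1, 2 and 3. All 3 libraries with siponimod were far above those without, and replicate 1 was highest in both groups. The level was 14.9 ± 3.75 against 167 ± 103 CPM (SD, n = 3 per group), with a log2 FC of 3.49 ± 0.49 SE or 11.2-fold higher. It ranked 183 by fold change among the 1633 higher DEGs. Without single libraries the log2 FC lay between 2.86 and 3.78, and Fabp4 was a DEG in all 6 of these fits.

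Plin2 encodes perilipin 2, which coats lipid droplets. It had 16962, 11104 and 11967 counts with LPS + DMSO and 31255, 19377 and 23666 with LPS + siponimod. In each pair the siponimod library was the higher one, by 0.56, 0.59 and 0.84 on the log2 scale, although the groups overlapped in CPM (356 ± 89.7 against 561 ± 120, SD, n = 3 each). The log2 FC of 0.66 ± 0.25 SE did not pass the DEG thresholds, and it did with the replicate number as a block (0.66 ± 0.15 SE). Under this block 2 of the 8 genes were DEGs upwards and 2 downwards, where 17.7% of all genes tested were higher and 16.4% lower (34.0% together).

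Cpt1a encodes the carnitine palmitoyltransferase that admits long-chain fatty acids to mitochondria. Counts were 2909, 2566 and 7317 in LPS + DMSO replicates 1, 2 and 3 and 1916, 2774 and 2909 in LPS + siponimod replicates 1, 2 and 3. The groups overlapped, and LPS + DMSO replicate 3 stood above the other 5 libraries. The log2 FC of -0.97 ± 0.46 SE was not past the thresholds, and it was -0.32 without that library. The part of transcripts of other neural cells in replicate 3 in this value was not tested. Pdk4, a kinase that switches off pyruvate dehydrogenase, was barely detected with 34, 4 and 12 counts against 15, 15 and 5 (log2 FC -0.77 ± 0.83 SE), a value that turned to 0.31 without LPS + DMSO replicate 1.

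Transcripts of the receptors themselves were not past the thresholds. Pparg, the receptor of adipocyte differentiation, had 16, 22 and 7 counts with LPS + DMSO and 28, 21 and 3 with LPS + siponimod (log2 FC -0.05 ± 0.79 SE). In both groups replicate 3 had the fewest Pparg counts, and the sign of its fold change depended on which library was left out. Ppard, the widely expressed form, had 997, 838 and 1082 against 1136, 1061 and 901 counts (log2 FC -0.15 ± 0.15 SE), and its levels were 25.9 ± 3.78 and 23.4 ± 1.28 CPM (SD, n = 3 each). For both receptors the groups overlapped.

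**Figure D2:**
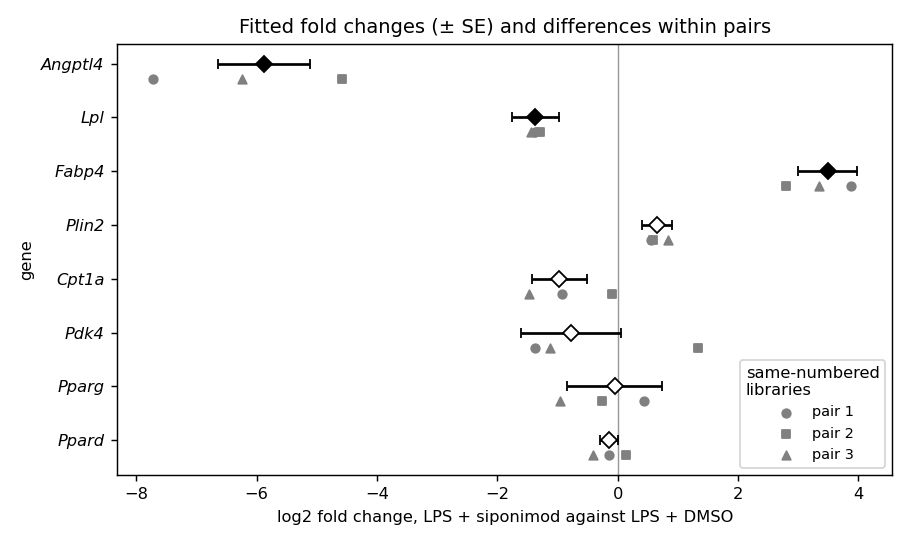
Log2 FC of the 8 genes, LPS + siponimod against LPS + DMSO. Diamonds with bars are fitted values ± standard error, filled where the DEG thresholds were passed, and grey symbols are the differences between libraries of the same number. For Lpl the 3 pairs lie between -1.44 and -1.30, and for Angptl4 between -7.73 and -4.59.

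Over the 6 libraries, log2 CPM of Angptl4 correlated with that of Lpl (Pearson's r = 0.826), Cpt1a (0.592), Ppard (0.448), Pdk4 (0.303) and Pparg (0.202), and inversely with Fabp4 (-0.969) and Plin2 (-0.811). These values describe 6 libraries that fall into 2 conditions, so that any gene that differs between the conditions has a high value. Among all genes tested, the 5 whose pattern was most like that of Angptl4 were Prdx2 (0.999), Galnt2 (0.999), 1600014C10Rik (0.999), Necap1 (0.998) and Anxa3 (0.998). Of these, Anxa3, which encodes an annexin, was 5.98-fold lower with siponimod (388 ± 53.8 against 65.0 ± 28.9 CPM). The most opposite patterns were those of Paics (-0.999), Hivep2 (-0.999), Pdcd2l (-0.998), Uap1 (-0.998) and Cyp20a1 (-0.997), of which Uap1 was 5.87-fold higher (8.79 ± 1.35 against 51.6 ± 15.3 CPM).

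Beyond the 8 genes, 158 further genes were assigned to 7 lists of lipid handling from general knowledge, and 122 of these were tested. With siponimod 17 rose and 17 fell (13.9% in each direction, beside 13.6% and 11.7% of all genes), and 88 were not DEGs. Their median log2 FC was -0.23, beside -0.02 over all genes. Blocking on the replicate number, 21 rose and 25 fell. Only 10 of the 34 DEGs were called whichever of the 6 libraries was removed, namely Acsl3, Abhd5, Gpat3, Agpat2, Agpat4, Hadhb, Pdp2 and Pdha1 upwards and Dbi and Etfb downwards. Leaving out LPS + DMSO replicate 2 cost 22 of the calls, LPS + siponimod replicate 1 cost 21, LPS + siponimod replicate 3 cost 16, LPS + DMSO replicate 1 cost 11, LPS + siponimod replicate 2 cost 4 and LPS + DMSO replicate 3 cost 1.

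**Figure D3:**
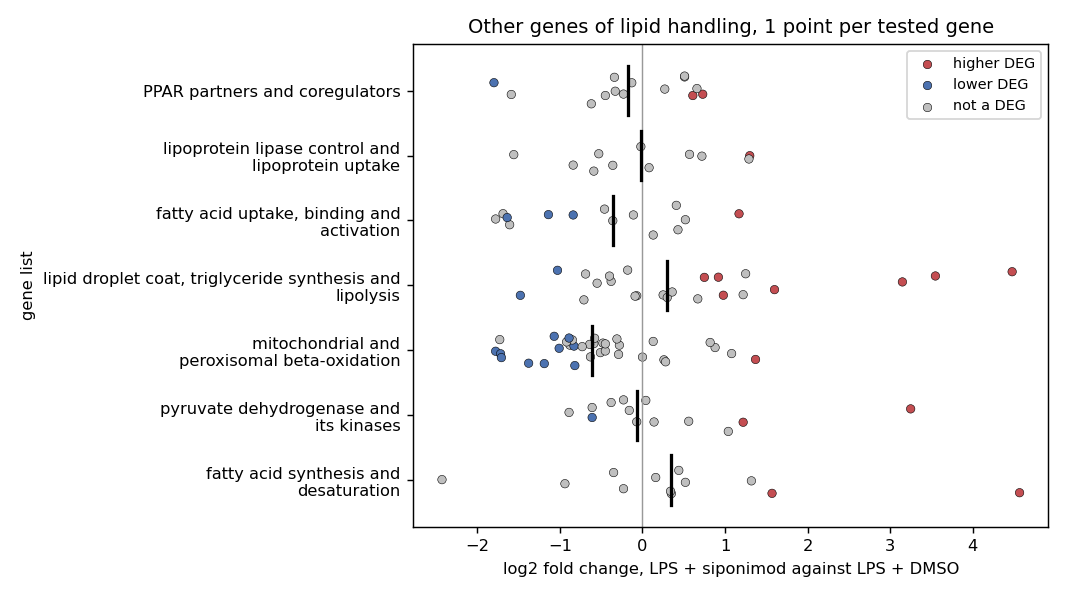
Log2 FC, LPS + siponimod against LPS + DMSO, of the tested genes in 7 lists of lipid handling, 1 point per gene, with vertical spread within a list added for legibility. Red points are higher DEGs, blue points lower DEGs, grey points other genes, and black lines list medians. Slc27a6 is counted in its list's median but not drawn, being under the floor of 3 counts without siponimod. Of the beta-oxidation genes 27 of 34 lie to the left of 0, with a median of -0.61, and the highest values belong to the lipid droplet and triglyceride list, the fatty acid synthesis list and Pdha1.

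In the list of lipid droplet coats, triglyceride synthesis and lipolysis, 7 of 23 tested genes rose, 2 fell and 14 were not DEGs (median log2 FC 0.30). Agpat2, an acyltransferase of the triglyceride and phospholipid pathway, was at 1.35, 1.30 and 1.75 CPM with LPS + DMSO and at 17.0, 12.7 and 21.7 CPM with LPS + siponimod. Its libraries with siponimod were all well above the others (log2 FC 3.55 ± 0.27 SE, adjusted p = 0.00321, edgeR quasi-likelihood test). Gpat3, the acyltransferase of the first step, rose from 9.64 ± 3.48 to 85.4 ± 36.1 CPM (log2 FC 3.15 ± 0.41 SE, edgeR adjusted p = 0.00733). Abhd5, the coactivator of adipose triglyceride lipase, rose from 36.9 ± 1.43 to 69.6 ± 6.78 CPM (log2 FC 0.92, edgeR adjusted p = 0.00724), and that lipase, Pnpla2, 1.69-fold (edgeR adjusted p = 0.0276). Plin3, a perilipin listed in the files as AABR07066529.1, rose 1.98-fold (edgeR adjusted p = 0.0306). Agpat4 (3.03-fold) and the monoglyceride lipase gene Mgll (7.84 ± 0.914 to 175 ± 164 CPM) also rose and were picked for mention after their values were seen. Lpin2, a phosphatidate phosphatase gene, fell 2.79-fold (edgeR adjusted p = 0.0306) and Bscl2, which encodes seipin, 2.04-fold (edgeR adjusted p = 0.0322). The final acyltransferases were not DEGs, with a log2 FC of 0.25 for Dgat1 and -0.69 for Dgat2, the latter being called with the replicate block (-0.66, edgeR adjusted p = 0.022). Plin1 had no count in any library, which allows at most 0.081 CPM, and G0s2, an inhibitor of Pnpla2, had 1, 0 and 3 against 3, 2 and 0 counts. The calls of Pnpla2, Plin3, Lpin2 and Bscl2 were lost without LPS + DMSO replicate 2, LPS + siponimod replicate 1 or LPS + siponimod replicate 3, with edgeR adjusted p up to 0.131, and further without LPS + DMSO replicate 1 for Lpin2 and Bscl2 and without LPS + siponimod replicate 2 for Pnpla2. That of Mgll was lost without LPS + DMSO replicate 2 (edgeR adjusted p = 0.0597).

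Of 34 tested genes of mitochondrial and peroxisomal beta-oxidation, 10 fell, 1 rose and 23 were not DEGs, and 27 had a negative log2 FC (median -0.61). The 10 lower genes are 29.4% of the list, beside 11.7% of all genes, but their number depended on single libraries, as did that over all genes. It was 2 without LPS + siponimod replicate 1 or LPS + DMSO replicate 2, and 3 without LPS + siponimod replicate 3. It was 4 without LPS + DMSO replicate 1, 8 without LPS + siponimod replicate 2 and 19 without LPS + DMSO replicate 3. Over all genes, the 1403 lower DEGs became 191, 182, 273, 644, 1462 and 1772 in these fits, in the same order. With the replicate block 12 fell and 2 rose, where 16.4% of all genes tested were lower and 17.7% higher. Etfb, a subunit of the flavoprotein that takes up electrons from acyl-CoA dehydrogenases, fell from 20.4 ± 4.42 to 6.21 ± 1.29 CPM (log2 FC -1.72 ± 0.24 SE, edgeR adjusted p = 0.00829). The short-chain dehydrogenase gene Acads fell 2.09-fold (edgeR adjusted p = 0.0094), the carnitine-acylcarnitine carrier Slc25a20 1.77-fold (edgeR adjusted p = 0.00981) and the very-long-chain dehydrogenase gene Acadvl had a log2 FC of -0.83 (edgeR adjusted p = 0.0252). Hadhb, the beta subunit of the mitochondrial trifunctional protein, was the 1 gene of the list that rose in edgeR's fit on the condition alone (DESeq2 called 3), from 71.97, 69.2 and 61.8 CPM to 208, 156 and 158.5 CPM (log2 FC 1.37 ± 0.16 SE, edgeR adjusted p = 0.00655). Its partner subunit Hadha had a log2 FC of -0.48 (edgeR adjusted p = 0.023) and was short of 1.5-fold. Cpt1b, Cpt2 and Acadm were not DEGs, with log2 FCs of 0.88, 0.13 and -0.88, although Acadm was one without LPS + DMSO replicate 3 (edgeR adjusted p = 0.0128) and Cpt1b with DESeq2 (adjusted p = 0.0177). In the same libraries the share of counts from mitochondrially encoded genes was 1.54%, 1.39% and 1.41% with LPS + DMSO and 0.313%, 0.610% and 0.568% with LPS + siponimod, and its part in these results was not tested. Without LPS + DMSO replicate 2 the calls of Acads (edgeR adjusted p = 0.0515) and Acadvl were lost, without LPS + siponimod replicate 1 those of Slc25a20 (edgeR adjusted p = 0.0542) and Acadvl, and without LPS + DMSO replicate 1 or LPS + siponimod replicate 3 that of Acadvl.

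Pyruvate dehydrogenase, which PDK4 and its relatives inhibit, showed a large change in 1 subunit. Pdha1, the catalytic alpha subunit, was at 96.3, 76.6 and 69.0 CPM with LPS + DMSO and at 977, 614 and 707 CPM with LPS + siponimod. The libraries of the groups were far apart, with a 9.50-fold rise (log2 FC 3.25 ± 0.25 SE, edgeR adjusted p = 0.00321). Pdp2, a phosphatase that reactivates the complex, rose 2.33-fold (edgeR adjusted p = 0.00733). Among the kinases, Pdk1 fell 1.53-fold (edgeR adjusted p = 0.0389), and Pdk2 and Pdk3 had log2 FCs of -0.89 and -0.61 and passed the thresholds only without LPS + DMSO replicate 3 (edgeR adjusted p = 0.0378 and 0.0304). Of 13 genes in this list 2 rose and 1 fell, with a median log2 FC of -0.07. The call of Pdk1 held only without LPS + DMSO replicate 3 among the 6 fits that left out a library, with edgeR adjusted p up to 0.131, and it was lost when genes with low counts were retained.

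For fatty acid uptake, binding and activation, 2 of 15 tested genes rose and 3 fell (median log2 FC -0.36). Acsl3, an acyl-CoA synthetase of lipid droplets, rose from 11.5 ± 0.888 to 25.9 ± 2.54 CPM (edgeR adjusted p = 0.00657). Slc27a6, a fatty acid transport protein gene, had 0, 0 and 1 counts with LPS + DMSO, which is under the floor of 3 counts per library, and 17, 23 and 12 with LPS + siponimod, which makes it at least 4.90-fold higher against that floor (edgeR adjusted p = 0.0136). Dbi, the acyl-CoA binding protein gene, fell from 31.5, 41.3 and 26.3 CPM to 8.72, 10.98 and 12.2 CPM (log2 FC -1.64 ± 0.22 SE, edgeR adjusted p = 0.00779). The synthetase gene Acsl5 fell (log2 FC -1.14 ± 0.23 SE, edgeR adjusted p = 0.0189) and the thioesterase gene Acot7 1.79-fold (edgeR adjusted p = 0.029). Acsl1 resembled Cpt1a in that LPS + DMSO replicate 3 stood out, with 1850, 1720 and 13665 against 1599, 2350 and 1940 counts, and its log2 FC of -1.78 (edgeR adjusted p = 0.16) was -0.08 without that library. Of the relatives of Fabp4, Fabp3 had 41, 35 and 37 against 20, 32 and 49 counts (log2 FC -0.36, edgeR adjusted p = 0.556), and Fabp7, a gene of glial progenitors, had 7, 13 and 357 against 7, 21 and 277 counts, being high in replicate 3 of both groups. Cd36 was not analysed here. The calls of Slc27a6, Acsl5 and Acot7 were lost without LPS + DMSO replicate 2 or LPS + siponimod replicate 1 (edgeR adjusted p up to 0.105), those of Acsl5 and Acot7 also without LPS + siponimod replicate 3, and those of Slc27a6 and Acot7 also without LPS + DMSO replicate 1.

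Genes around lipoprotein lipase and partners of PPARs held 4 DEGs in all. Furin, a protease that cleaves ANGPTL4 and lipoprotein lipase, rose 2.46-fold (146.9 ± 36.7 to 362 ± 21.7 CPM, edgeR adjusted p = 0.0106) and was the single DEG among 11 tested genes of lipase control and lipoprotein uptake (median log2 FC -0.02). The lipase maturation factor gene Lmf1 had a log2 FC of -0.53 and the lysosomal lipase gene Lipa of 0.08, and neither was a DEG. Gpihbp1, the endothelial anchor of lipoprotein lipase, had no counts in any library. Among 14 tested partners and coregulators 2 rose and 1 fell (median log2 FC -0.18). Rxrb rose 1.66-fold (edgeR adjusted p = 0.0146) and the corepressor gene Ncor1 1.53-fold (edgeR adjusted p = 0.0209), while Rxra had a log2 FC of -0.13 and was not a DEG. Nr1h3, the liver X receptor alpha gene, fell from 79.4 ± 28.2 to 22.8 ± 7.23 CPM (log2 FC -1.80 ± 0.34 SE, edgeR adjusted p = 0.0155). Ppara had 6, 0 and 5 counts against 13, 3 and 10, and Rxrg 10, 8 and 0 against 1, 11 and 1, both too few to be tested. Ppargc1b, a coactivator, was not a DEG (log2 FC -1.59, edgeR adjusted p = 0.122) but was called with the replicate block (log2 FC -1.48, edgeR adjusted p = 0.0309) and without LPS + DMSO replicate 3 (0.0318), where Lmf1 was called as well (0.0177). With the replicate block the lipase list held 2 higher and 1 lower DEGs and the partners 3 and 3. Without LPS + DMSO replicate 3, 3 genes of the lipase list were higher and 2 lower DEGs, and 2 of the partners were higher and 3 lower. Without LPS + DMSO replicate 2 the calls of Furin (edgeR adjusted p = 0.0532), Rxrb, Ncor1 and Nr1h3 were lost, without LPS + siponimod replicate 1 those of the last 3 (up to 0.0962), without LPS + siponimod replicate 3 those of Rxrb and Ncor1, and without LPS + DMSO replicate 3 that of Ncor1.

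In fatty acid synthesis and desaturation, 2 of 12 tested genes rose and none fell (median log2 FC 0.35), although 1 fell with the replicate block or without LPS + siponimod replicate 3. Elovl6, the elongase of palmitate, had 8, 3 and 27 counts with LPS + DMSO and 413, 266 and 389 with LPS + siponimod (log2 FC 4.57 ± 0.76 SE, edgeR adjusted p = 0.0117). Me1, the malic enzyme that supplies NADPH, rose from 61.3 ± 20.2 to 182 ± 21.4 CPM (edgeR adjusted p = 0.0108). The call of Elovl6 was lost without LPS + siponimod replicate 1 (edgeR adjusted p = 0.0541), and that of Me1 without that library or LPS + DMSO replicate 2 (0.0598).

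**Figure D4:**
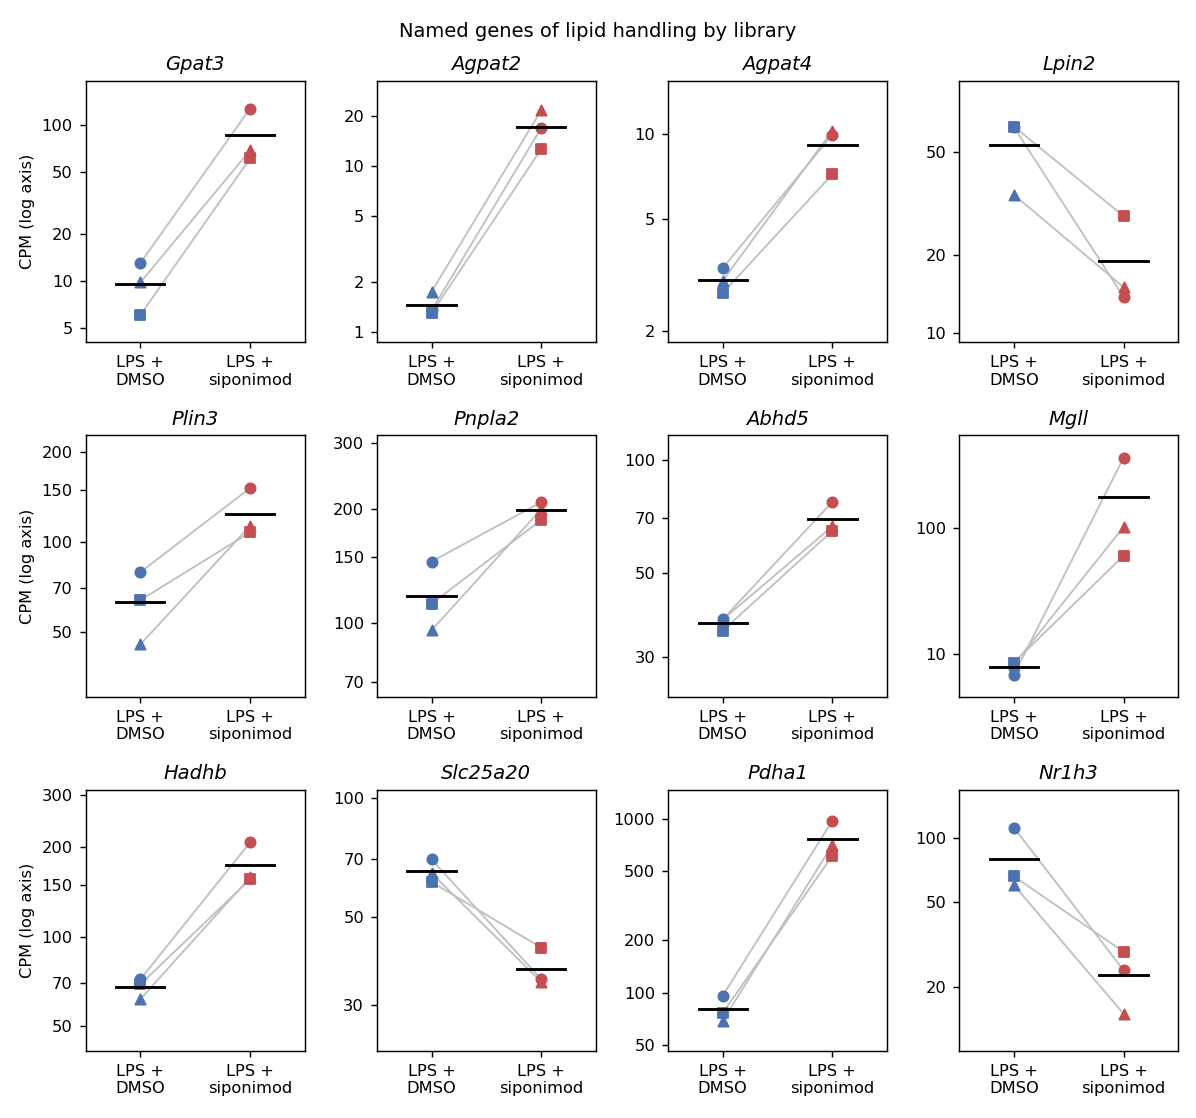
Levels of 12 named genes of lipid handling in each library, in CPM on log axes that differ between panels. Circles, squares and triangles are replicates 1, 2 and 3, blue is LPS + DMSO, red is LPS + siponimod, grey lines join same-numbered libraries and black bars are means of n = 3. The groups do not overlap in any of the 12 panels, and Pdha1 lies between 614 and 977 CPM with siponimod.

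The 15 microglia and macrophage markers summed to 13348, 11035 and 6719 CPM with LPS + DMSO and to 5468, 6915 and 3709 CPM with LPS + siponimod. By mean level Csf1r led with LPS + DMSO (2108 CPM, against 811.7 CPM with siponimod) and Cd68 with LPS + siponimod (1076 CPM, against 1075 CPM without). Markers of resting microglia were low, with 69, 202 and 35 counts of Cx3cr1 against 3, 21 and 4, and 15.79, 15.76 and 1.157 CPM of P2ry12 against 0.3874, 2.375 and 0.3171 CPM. Of these markers Aif1, Itgam and Cx3cr1 were lower DEGs and none was a higher DEG. With the replicate block, Csf1r (edgeR adjusted p = 0.0375), P2ry12, C1qa, C1qb, C1qc and Fcgr3a were lower DEGs as well, 9 of the 15 in all. Because Fabp4, Lpl and Angptl4 are also genes of adipocytes and endothelial cells, markers of these cells were examined. Adipoq, Lep, Plin1, Pck1 and Adrb3, 5 of 10 adipocyte markers, had no count in any library, and the summed level of the list was 88.6, 71.2 and 45.3 CPM against 50.6, 54.3 and 31.0 CPM, most of it Cfd, with Retn as a lower DEG. Of 9 listed endothelial markers, Kdr and Emcn had no count, and the sum was 173.5, 218 and 97.1 CPM against 47.1, 88.9 and 37.0 CPM, led by Cdh5, with Flt1 as a lower DEG, and Cdh5 and Pecam1 were lower DEGs with the replicate block (edgeR adjusted p = 0.0142 and 0.00966). The sum of 10 oligodendrocyte lineage markers was 149.9, 136 and 149 CPM against 49.2, 67.8 and 59.97 CPM, led by Cnp, a lower DEG, whereas Mbp was a higher one. Replicate 3 lay within the range of the others by this sum but not by some single members. Olig1 had 1, 5 and 515 counts with LPS + DMSO and 2, 3 and 17 with LPS + siponimod, beside the values of Olig2 and Pdgfra given above. The 10 astrocyte markers summed to 48.4, 24.4 and 27.6 CPM against 29.4, 28.8 and 61.1 CPM in replicates 1, 2 and 3, led by Slc1a3, with Aldoc as a lower DEG and Gjb6 at 0 counts. For 10 neuronal markers the sum was 3.18, 2.28 and 12.4 CPM against 6.72, 9.84 and 22.7 CPM, highest in replicate 3 of both groups, led by Tubb3, with Snap25 as a higher DEG and Tubb3 as one with the replicate block (edgeR adjusted p = 0.0316), and for 10 markers of fibroblasts and pericytes 10.6 to 12.9 CPM against 19.5 to 29.1 CPM, led by Fn1, with Dcn as a higher DEG and Rgs5 at 0 counts. The 9 listed lymphocyte markers reached 10.98 to 14.3 CPM against 8.35 to 9.79 CPM, led by Lck, with Thy1 as a lower DEG and Cd3e and Cd3g among those at 0 counts. Among these marker calls, those of Flt1, Cnp and Snap25 held whichever library was left out, while Itgam, Mbp and Dcn were called in 3 of the 6 fits, Aif1, Cx3cr1 and Retn in 2, Aldoc in 1 and Thy1 in 0. The part of other cells in the values of Angptl4, Lpl and Fabp4 was not tested.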

How the data were processed

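RNA of 6 cultures of primary rat microglia (3 per group, biological replicates per the study's methods) was sequenced after mRNA capture. The authors converted reads with bcl2fastq (version 2.20.0.422), trimmed them, mapped them to mRatBN7.2 in the CLC Genomics Workbench and deposited total read counts per gene, without normalization. Use of strand and the treatment of reads matching several genes are not given in the sources used here, so that overlapping or near-identical genes are uncertain. In 1 table, 1 blank row was left out.

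Counts were analysed with edgeR (version 4.0.16) in R (version 4.3.3). Genes were kept by filterByExpr (minimum count 10, minimum total 15), scaled by TMM and tested with glmQLFit and glmQLFTest on the condition alone, with Benjamini-Hochberg adjustment over all 11977 genes tested. DEGs were genes that differed 1.5-fold or more at an adjusted p no higher than 0.05. Standard errors were obtained from the log2 FC and the root of its F statistic. Differences within pairs and correlations used log2 CPM with a prior count of 2. The floor of 3 counts covers counting error only. With 3 against 3 libraries, the precision rests on the spread that edgeR shares across genes. The quasi-likelihood, likelihood ratio and DESeq2 fits on the condition alone were tested on simulated data.

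Replicates are numbered 1 to 3 in both groups. Over genes, deviations from group means correlated at 0.42, 0.545 and 0.611 for equal numbers and at -0.534 to 0.0856 for unequal ones, so that the numbers were taken to pair the libraries. Deviations within a group sum to 0, which by itself lowers the values for unequal numbers where those for equal numbers are positive. Only the fit with the replicate block used this pairing, whereas the main fit and the fits without a library did not.

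The genes of the set and all gene lists were chosen with earlier results of these data known. Named are the 8 listed genes, up to 3 DEGs per direction and list with the smallest adjusted p, a fixed set of receptors, transporters and enzymes, the 5 genes most and least like Angptl4, and the most abundant marker of each cell type. Some genes of the rule and of the marker lists are not reported here. Plin3 and Car9 were matched through RefSeq synonyms. Alternatives were RLE scaling, DESeq2 (version 1.42.0), edgeR's likelihood ratio test, other filters (17057 and 10877 genes tested), the replicate block and leaving out each library.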

Additional observations from a re-analysis of the deposited data

How the results depend on the processing

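RLE scaling and edgeR's likelihood ratio test kept the direction and the side of the thresholds for 67 of the named genes tested, markers and genes mentioned after their values were seen not counted. Of the 8 PPAR-linked genes, the number of higher DEGs became 2 with DESeq2 and 2 with the replicate block, in both cases through Plin2, while over all genes DESeq2 called 1974 higher and 1924 lower, and the number of lower DEGs became 1 with no filter beyond 1 count, where Lpl was not called. Leaving out single libraries gave 1 higher DEG in each fit and 1 to 2 lower DEGs. Among the other lipid genes it gave 9 to 20 higher and 3 to 33 lower DEGs, and over all genes 469 to 1941 higher and 182 to 1772 lower DEGs, with 651 in all without LPS + DMSO replicate 2 and 783 without LPS + siponimod replicate 1. The cause was not tested. The replicate block gave 2114 higher and 1960 lower DEGs over all genes and, among the 67 genes, changed the calls of Plin2, Ppargc1b and Dgat2, and among the markers named those of Csf1r, P2ry12, C1qa, C1qb, C1qc, Fcgr3a, Cdh5, Pecam1 and Tubb3.

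Signs turned for 6 named genes, none of them a DEG. With single libraries left out, the log2 FC ranged from -1.24 to 0.31 for Pdk4, from -0.54 to 0.43 for Pparg, from -3.43 (without LPS + siponimod replicate 3) to 3.22 (without LPS + DMSO replicate 3) for Fabp7, which was at -0.17 ± 0.31 SE with the replicate block, from -0.45 to 0.20 for Rxra, from -0.26 to 0.63 for Lipa and from -0.05 to 0.27 for Cpt2. Marker sums differed between RLE and TMM scaling by less than the spread between libraries. Pparg, Pdk4, Ppara and Rxrg had at most 34 counts in any library, which limits the precision of their values.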

Other observations

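Angptl4 is also known as a target of HIF-1 and of the glucocorticoid receptor, and lists of such genes were examined. Whether either factor had a part in the fall of Angptl4 was not tested. Targets of HIF-1 went both ways, with 1 of 17 tested genes rising (5.88%), 3 falling (17.6%) and 13 not being DEGs (median log2 FC 0.11). Of all genes tested, 13.6% were higher and 11.7% lower. With the replicate block 6 rose and 3 fell, where 17.7% of all genes tested were higher and 16.4% lower. DESeq2 and edgeR's likelihood ratio test each called 5 higher and 4 lower, and without LPS + siponimod replicate 1, LPS + DMSO replicate 2 or LPS + siponimod replicate 3 none was called lower. Vegfa, the angiogenic growth factor gene, rose from 21.5 ± 13.7 to 393 ± 203 CPM (mean ± SD of 3 libraries, log2 FC 4.19 ± 0.69 SE, edgeR adjusted p = 0.0112). The collagen hydroxylase gene P4ha1 fell 2.17-fold (edgeR adjusted p = 0.0158), the glycolytic regulator Pfkfb4 3.27-fold (edgeR adjusted p = 0.0219) and the lactate dehydrogenase gene Ldha 1.56-fold (edgeR adjusted p = 0.0455), the last of which was not called when genes with low counts were retained (0.0771).

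Of 8 tested genes in the glucocorticoid receptor list, 5 rose, none fell and 3 were not DEGs (median log2 FC 0.85). The higher genes are 62.5% of the list, beside 13.6% of all genes, while 11.7% of all genes were lower. However, 1 gene of the list was called lower with RLE scaling, DESeq2, the likelihood ratio test, the replicate block and without LPS + siponimod replicate 2. With the block this was Cebpd, a transcription factor gene named here after its values were seen (log2 FC -1.16 and edgeR adjusted p = 0.051 without the block, 0.0262 with it). The number of higher genes was 2 to 5 when single libraries were left out, being 2 without LPS + siponimod replicate 1, LPS + DMSO replicate 2 or LPS + siponimod replicate 3 and 3 without LPS + siponimod replicate 2. The transcription factor gene Klf9 rose from 0.699 ± 0.28 to 7.68 ± 0.514 CPM (log2 FC 3.45 ± 0.37 SE, edgeR adjusted p = 0.00589) and Tsc22d3, which encodes the leucine zipper protein GILZ, from 12.3 ± 3.56 to 45.6 ± 16.4 CPM (log2 FC 1.89, edgeR adjusted p = 0.013). Mt2A, a metallothionein gene that also answers to metals, rose 16.7-fold (edgeR adjusted p = 0.0164). The kinase gene Sgk1 (2.12-fold) and the receptor gene Nr3c1 (1.52-fold) rose as well and were added to the named genes after their values were seen. Klf9 and Vegfa were DEGs in each fit without a single library, whereas Tsc22d3 was not without LPS + DMSO replicate 2 (edgeR adjusted p = 0.0621), and P4ha1, Pfkfb4, Ldha, Mt2A, Sgk1 and Nr3c1 were DEGs in 1 to 3 of the 6 fits.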
